A study of Mus musculus with 18 samples.

Results

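The 10 genes described here mark T cells and regulatory T cells in the mouse colon. They are *Cd3d*, *Cd3e* and *Cd3g*, *Cd4*, *Cd8a* and *Cd8b1*, *Foxp3*, and *Ctla4*, *Icos* and *Cd28*. They were taken by gene symbol, as a set chosen with earlier results of these data known, and all 10 were found among the 47729 genes of the count table. RNA came from the colon of 9 mice, 3 in each group. Naive WT mice were wild-type mice labelled as controls. WT CAC mice were wild-type mice given the carcinogen azoxymethane (AOM, 10 mg/kg) and 3 cycles of 2.5% dextran sulfate sodium (DSS), which injures the colon epithelium, a combination that leads to tumors of the inflamed colon (colitis-associated cancer, CAC). The Claudin-2 transgene was present in the *Cldn2*TG CAC mice, which had the same AOM-DSS treatment. The transgene is driven by the villin promoter, which is active in the intestinal epithelium, so the T cells themselves were not the cells targeted. The strain was C57BL/6 throughout, the animals' age was not given in the sources used here, and no transgenic mice without AOM-DSS were measured. The treatment text is attached to the control samples as well, and the naive group therefore rests on its treatment label. Mice are numbered 1 to 3 (naive WT), 4 to 6 (WT CAC) and 7 to 9 (*Cldn2*TG CAC).

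A T cell recognizes antigen through its T cell receptor, which signals through the CD3 chains, while the coreceptors CD4 and CD8 bind the class II and class I molecules that present the antigen. CD28 gives the costimulatory signal, ICOS does so on activated cells, and CTLA4 competes with CD28 for the same ligands and restrains activation. FOXP3 is the transcription factor that defines regulatory T cells, which hold back inflammation in the gut and carry CTLA4 and ICOS in large amounts.

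The gene counts of a mouse added up to between 14142711 and 22262546. Markers of the colon epithelium summed to between 17182 and 24802 CPM (counts of a gene per 1000000 counts of the library, with the library totals scaled by TMM over all mice), whereas the 10 T cell genes together summed to 2.98 to 32.5 CPM. Sums over different genes do not measure shares of cells. A count of 0 allows up to 3 counts, or 0.129 to 0.220 CPM, and this limit, like the counting intervals given here, covers counting error only. *Cldn2*, the transgene's gene, measured 231 ± 34.9 CPM in naive WT, 130 ± 7.75 CPM in WT CAC and 225 ± 21.2 CPM in *Cldn2*TG CAC colon (SD, n = 3), so that the transgenic mice were above WT CAC but not above naive WT mice. Reads of the transgene and of the mouse's own gene are not told apart in the counts. *Xist*, an RNA of female cells, was at 214 CPM in naive WT mouse 1 and at no more than 0.204 CPM in the other 8 mice. The methods describe mice matched by sex, but by this RNA the naive WT group was mixed while neither CAC group was. Each pair of groups was put through edgeR's quasi-likelihood test, and a gene was called at a Benjamini-Hochberg adjusted p under 0.05 over all genes tested.

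The T cell genes were higher in WT CAC colon than in the other groups. Against naive WT colon, all 10 genes passed the filter on low counts and 8 rose in WT CAC mice, with log2 fold changes from 2.05 to 4.44. Of all 15437 genes tested, 8.04% rose in this comparison. Of the 8 genes tested between the CAC groups 6 were lower in *Cldn2*TG CAC than in WT CAC mice, with log2 fold changes from -1.63 to -3.19, against 7.35% of the 14888 genes tested. Between *Cldn2*TG CAC and naive WT mice 5 of the 10 genes passed the filter and 0 were called by edgeR, against 10.0% of 15013 genes, and 0 had an unadjusted p under 0.05 or were called by DESeq2. WT CAC values were compared with the other groups in both of the first comparisons, so these share the same 3 mice and are not independent. In whole tissue, fewer T cells and less of each RNA per T cell cannot be told apart.

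For 9 of the 10 genes every WT CAC mouse was above every naive WT mouse, which was so for 18.9% of the genes tested. For 6 of the 8 genes tested between the CAC groups every *Cldn2*TG CAC mouse was below every WT CAC mouse, against 15.2% of the genes tested. This was also so for *Foxp3* and *Ctla4*, which were not tested. For 0 of the 5 genes tested between *Cldn2*TG CAC and naive WT mice did the groups lie apart, against 31.4% of the genes tested. The other 5 genes overlapped too, but had low counts in both groups. Among the genes tested the median log2 fold change was 2.23 for WT CAC relative to naive WT and -1.92 for *Cldn2*TG CAC relative to WT CAC, where the medians over all genes were 0.02 and 0.01. Several of the genes passed the filter only because of their WT CAC counts, and the set was chosen with earlier results known. The calls above, the counts of genes whose mice lay apart and the medians therefore describe the genes that were measurable. They carry no weight beyond that.

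**Figure D1:**
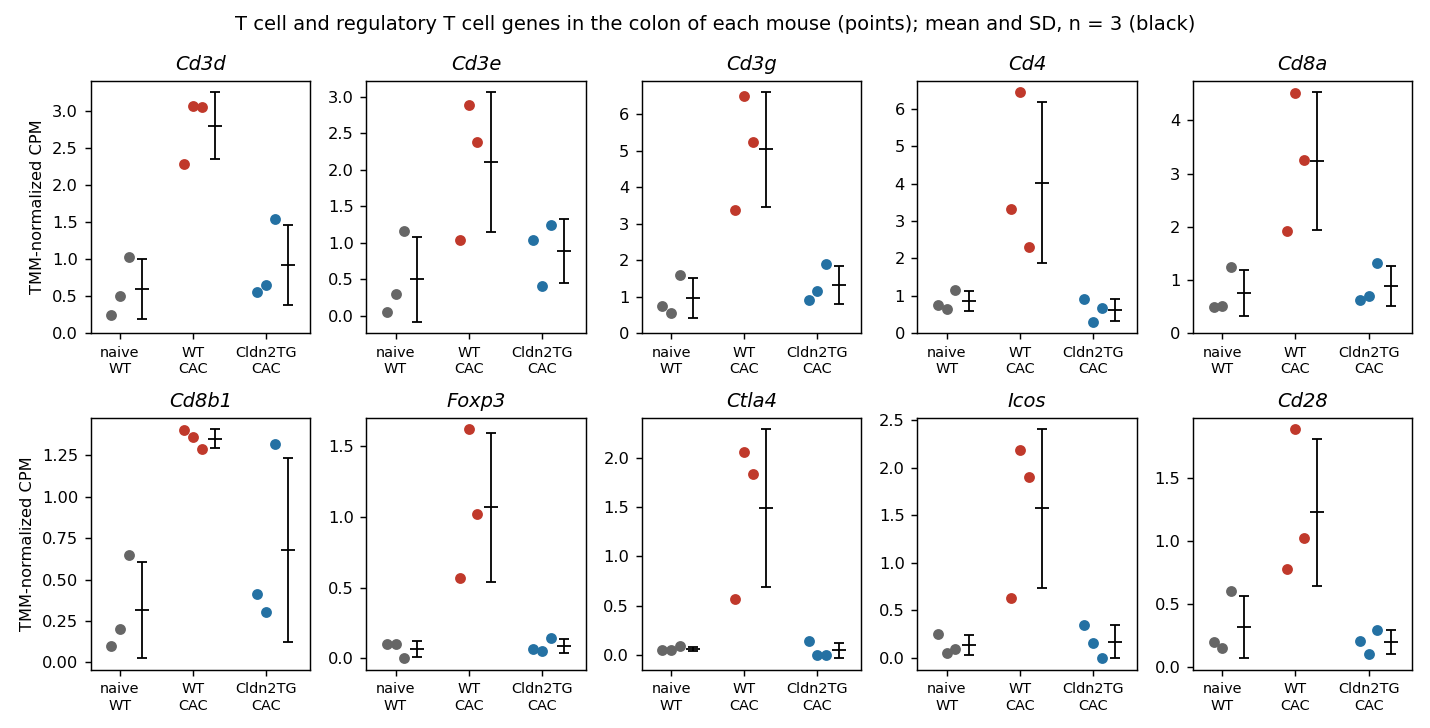
TMM-normalized CPM (y axis, linear) of each of the 10 genes in each of 9 mice by group (x axis), with the mean and SD of 3 mice in black. WT CAC mice lie above naive WT mice for every gene but *Cd3e*, and above *Cldn2*TG CAC mice for every gene but *Cd3e* and *Cd8b1*.

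*Cd3g*, *Cd3d* and *Cd3e* encode the γ, δ and ε chains that couple the T cell receptor to its signalling machinery. The 3 genes lie side by side on chromosome 9 (GRCm38), *Cd3g* from 44969572 to 44980431 on the minus strand, *Cd3d* from 44981793 to 44987052 on the plus strand and *Cd3e* from 44998743 to 45009590 on the minus strand. Between *Cd3g* and *Cd3d* there are 1361 bases, and between *Cd3d* and *Cd3e* 11690. The sequences around their starts are shown because the chains are neighbours that make up 1 complex, as given by RefSeq on GRCm38.p6, from 250 bases before to 50 bases after each start and in the direction of the gene. Capitals mark the letters of 2 motifs found there on either strand, GGAAGT (bound by ETS factors) or its complement ACTTCC, and AGATAA (bound by GATA factors) or TTATCT.
*Cd3g*, chr9:44980382-44980681, minus strand: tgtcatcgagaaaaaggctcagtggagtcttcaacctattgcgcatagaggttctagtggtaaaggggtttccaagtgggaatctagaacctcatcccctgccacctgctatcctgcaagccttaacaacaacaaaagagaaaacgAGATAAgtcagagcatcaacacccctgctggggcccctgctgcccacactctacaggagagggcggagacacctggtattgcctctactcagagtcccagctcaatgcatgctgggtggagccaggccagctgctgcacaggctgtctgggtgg
*Cd3d*, chr9:44981536-44981835, plus strand: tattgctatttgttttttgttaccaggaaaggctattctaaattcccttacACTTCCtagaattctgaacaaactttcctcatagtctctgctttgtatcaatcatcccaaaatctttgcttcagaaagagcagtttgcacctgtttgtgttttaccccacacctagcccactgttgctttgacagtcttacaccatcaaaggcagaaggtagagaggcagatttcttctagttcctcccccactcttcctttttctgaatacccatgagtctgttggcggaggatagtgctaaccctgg
*Cd3e*, chr9:45009562-45009861, minus strand: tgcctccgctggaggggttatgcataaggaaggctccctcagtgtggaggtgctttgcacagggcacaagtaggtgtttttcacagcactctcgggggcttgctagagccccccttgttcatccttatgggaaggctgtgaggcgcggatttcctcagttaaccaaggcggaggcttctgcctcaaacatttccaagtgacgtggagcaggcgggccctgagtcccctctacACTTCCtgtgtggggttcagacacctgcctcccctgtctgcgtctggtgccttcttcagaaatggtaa
The starts of *Cd3g* and *Cd3d* point away from each other and are 1355 bases apart. The ETS letters occurred once each in the *Cd3d* and *Cd3e* windows and the GATA letters once in the *Cd3g* window. Among all 32851 windows of this length 23.8% held the ETS letters and 11.2% the GATA letters. The RUNX letters TGTGGT or ACCACA, held by 16.8% of all windows, were in none of the 3. A match of letters is a description of the sequence and not a binding site.

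*Cd3g* was measured at 0.746, 0.551 and 1.59 CPM in naive WT mice 1 to 3, at 3.38, 6.49 and 5.23 CPM in WT CAC mice 4 to 6, and at 0.898, 1.16 and 1.90 CPM in *Cldn2*TG CAC mice 7 to 9. The WT CAC mice stood apart from both other groups, which overlapped with each other. *Cd3g* rose 5.18-fold in WT CAC mice (log2 fold change 2.37, standard error 0.45, edgeR adjusted p = 0.0181) and was 3.84-fold lower in *Cldn2*TG CAC than in WT CAC mice (log2 fold change -1.94, standard error 0.38, edgeR adjusted p = 0.0188). *Cd3d* followed with 0.249, 0.501 and 1.03 CPM in naive WT, 2.29, 3.07 and 3.06 CPM in WT CAC, and 0.552, 0.654 and 1.54 CPM in *Cldn2*TG CAC mice. Again no other mouse reached the lowest WT CAC mouse. *Cd3d* rose 4.64-fold in WT CAC mice (log2 fold change 2.21, standard error 0.47, edgeR adjusted p = 0.0240) and was 3.10-fold lower in *Cldn2*TG CAC mice (log2 fold change -1.63, standard error 0.43, edgeR adjusted p = 0.0459), the latter close to the threshold.

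*Cd3e* was the exception among the chains, with 0.0497, 0.300 and 1.16 CPM in naive WT, 1.04, 2.89 and 2.38 CPM in WT CAC, and 1.04, 0.402 and 1.24 CPM in *Cldn2*TG CAC mice. WT CAC mouse 4 lay below naive WT mouse 3 and *Cldn2*TG CAC mouse 9, and naive WT mouse 1 had a single count of this gene. The log2 fold changes were 2.02 (standard error 0.80, edgeR adjusted p = 0.127) in WT CAC against naive WT mice and -1.27 (standard error 0.52, edgeR adjusted p = 0.181) in *Cldn2*TG CAC against WT CAC mice, and neither passed the test. The 95% intervals of these log2 fold changes, 0.16 to 3.89 and -2.46 to -0.08, include the values measured for *Cd3g* and *Cd3d*.

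*Cd4*, the coreceptor of helper and regulatory T cells (chromosome 6, 124864692 to 124888221, minus strand), was at 0.746, 0.651 and 1.16 CPM in naive WT, 3.32, 6.44 and 2.31 CPM in WT CAC, and 0.898, 0.302 and 0.659 CPM in *Cldn2*TG CAC mice. Every WT CAC mouse was above the other 6, and within WT CAC the highest mouse was mouse 5 and the lowest mouse 6. *Cd4* rose 4.73-fold in WT CAC mice (log2 fold change 2.24, standard error 0.45, edgeR adjusted p = 0.0208). It was 6.69-fold lower in *Cldn2*TG CAC than in WT CAC mice (log2 fold change -2.74, standard error 0.53, edgeR adjusted p = 0.0173). It was the only one of the 5 genes tested between *Cldn2*TG CAC and naive WT mice whose estimate was below 0, at -0.51 (standard error 0.45, 95% interval -1.51 to 0.49, edgeR adjusted p = 0.515).

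*Cd8a* and *Cd8b1* encode the chains of CD8, the coreceptor of cytotoxic T cells, and lie 35932 bases apart on chromosome 6 (*Cd8b1* from 71322788 to 71337494 and *Cd8a* from 71373427 to 71379173, both on the plus strand). CD8α also occurs without CD8β, on some intraepithelial lymphocytes and dendritic cells, while CD8β is largely limited to conventional cytotoxic T cells. *Cd8a* was at 0.497, 0.501 and 1.25 CPM in naive WT, 1.92, 4.51 and 3.26 CPM in WT CAC, and 0.621, 0.704 and 1.32 CPM in *Cldn2*TG CAC mice, with WT CAC apart from both other groups. It rose 4.28-fold in WT CAC mice (log2 fold change 2.10, standard error 0.48, edgeR adjusted p = 0.0291) and was 3.71-fold lower in *Cldn2*TG CAC mice (log2 fold change -1.89, standard error 0.44, edgeR adjusted p = 0.0322). *Cd8b1* was at 0.0995, 0.200 and 0.645 CPM in naive WT, 1.40, 1.36 and 1.29 CPM in WT CAC, and 0.414, 0.302 and 1.32 CPM in *Cldn2*TG CAC mice. Its WT CAC values were the closest together of the 10 genes, and *Cldn2*TG CAC mouse 9 lay among them. *Cd8b1* rose 4.13-fold in WT CAC against naive WT mice (log2 fold change 2.05, standard error 0.56, edgeR adjusted p = 0.0459), and the log2 fold change of -1.04 in *Cldn2*TG CAC against WT CAC mice did not pass (standard error 0.53, 95% interval -2.24 to 0.16, edgeR adjusted p = 0.287).

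**Figure D2:**
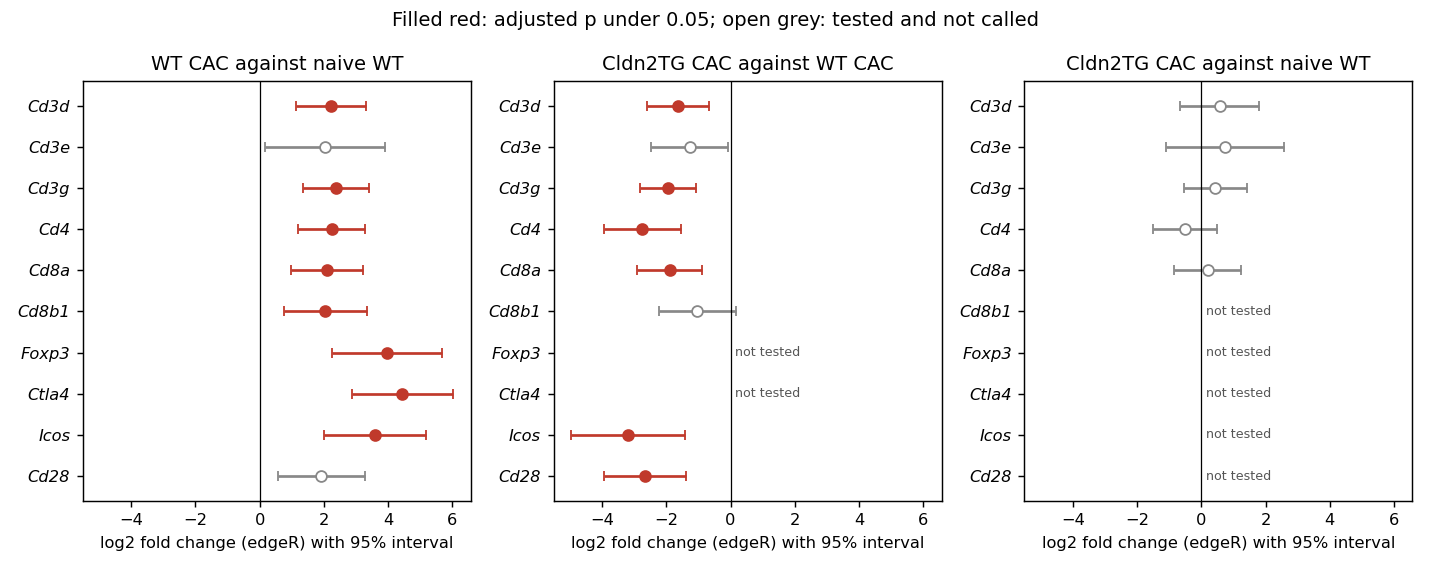
Log2 fold change (x axis) of each gene from edgeR with its 95% interval in each of 3 comparisons of 3 mice with 3. The estimates lie right of 0 in WT CAC against naive WT mice and left of 0 in *Cldn2*TG CAC against WT CAC mice, while all 5 intervals in *Cldn2*TG CAC against naive WT mice span 0.

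*Foxp3* (chromosome X, 7579676 to 7595243, plus strand) had 2, 2 and 0 counts in naive WT mice, 11, 37 and 15 counts in WT CAC mice, and 1, 1 and 2 counts in *Cldn2*TG CAC mice. In CPM these were 0.0995, 0.10 and 0 in naive WT, 0.571, 1.62 and 1.02 in WT CAC, and 0.0690, 0.0503 and 0.146 in *Cldn2*TG CAC mice. All 6 mice outside the WT CAC group were thus within the limit that a count of 0 allows, and all 3 WT CAC mice were above it. *Foxp3* rose in WT CAC mice (log2 fold change 3.97, standard error 0.75, edgeR adjusted p = 0.0178). Pooled over mice, the ratio of WT CAC to naive WT counts was 17.6 (95% counting interval 6.53 to 66.5). Against *Cldn2*TG CAC mice the pooled ratio was 13.3 (95% counting interval 4.95 to 50.4), and every *Cldn2*TG CAC mouse was below every WT CAC mouse (exact permutation test, two-sided, on log2 of CPM plus 0.5, p = 0.1, which is the smallest that groups of 3 can give). The filter removed *Foxp3* from that test, and without a filter the adjusted p was 0.00233 (edgeR). In the 5 fits without 1 mouse that tested *Foxp3* the adjusted p went up to 0.0890 (edgeR), with 2 of the 5 calling it. Exons of *Foxp3* share 590 bases with *Ccdc22*, 373 with *Gm36995* and 267 with *Flicr*, and reads in these stretches may be those of the neighbouring genes. *Flicr* lies on the strand of *Foxp3*, and for the others, on the opposite strand, it depends on the strand setting of the counting, which was not given in the sources used here.

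RefSeq lists 2 starts of *Foxp3*, and their windows, shown because this gene defines regulatory T cells, were searched in the same way.
*Foxp3*, chrX:7579426-7579725, plus strand: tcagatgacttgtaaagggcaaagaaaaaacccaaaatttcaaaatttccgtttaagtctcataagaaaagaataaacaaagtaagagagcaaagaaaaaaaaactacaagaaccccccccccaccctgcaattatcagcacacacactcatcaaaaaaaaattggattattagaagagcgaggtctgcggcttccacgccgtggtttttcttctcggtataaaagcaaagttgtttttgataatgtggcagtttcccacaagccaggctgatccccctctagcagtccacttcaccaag
*Foxp3*, chrX:7580233-7580532, plus strand: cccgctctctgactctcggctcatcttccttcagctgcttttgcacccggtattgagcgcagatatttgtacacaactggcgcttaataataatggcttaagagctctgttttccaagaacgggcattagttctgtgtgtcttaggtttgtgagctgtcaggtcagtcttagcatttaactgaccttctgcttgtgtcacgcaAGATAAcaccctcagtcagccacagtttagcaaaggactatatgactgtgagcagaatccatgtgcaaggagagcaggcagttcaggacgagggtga
The GATA letters occurred once, in the window of the second start, and the ETS and RUNX letters in neither. The windows of *Ctla4* and *Cd8a*, the other genes with an entry, held none of these letters.

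The CD28 family genes lie in a row on the plus strand of chromosome 1, *Cd28* from 60716800 to 60773359, *Ctla4* from 60887000 to 60915832 and *Icos* from 60977927 to 61000320. *Ctla4* was at 0.0497, 0.0501 and 0.0860 CPM in naive WT, 0.571, 2.06 and 1.83 CPM in WT CAC, and 0.138, 0 and 0 CPM in *Cldn2*TG CAC mice. These are 1, 1 and 2 counts in naive WT, 11, 47 and 27 counts in WT CAC, and 2, 0 and 0 counts in *Cldn2*TG CAC mice. With all mice *Ctla4* had the largest rise of the 10 genes in WT CAC against naive WT mice (log2 fold change 4.44, standard error 0.69, edgeR adjusted p = 0.0112), with a pooled ratio of counts of 23.7 (95% counting interval 8.92 to 89.0). Without mouse 1 the log2 fold changes of *Icos* (4.39) and *Foxp3* (4.36) were above that of *Ctla4* (4.31), and without mouse 2 that of *Foxp3* was (4.36 against 4.31). The *Ctla4* gene rested on few counts in each comparison. It was removed by the filter from the test against *Cldn2*TG CAC mice, where the pooled ratio was 35.9 (95% counting interval 9.65 to 302). The mice of these groups did not overlap (exact permutation p = 0.1, again the smallest), and without a filter the adjusted p was 0.00142 (edgeR). Both *Ctla4* counts of the *Cldn2*TG CAC group came from mouse 7, and in the 5 fits without 1 mouse that tested the gene the adjusted p went up to 0.0884 (edgeR), with 3 of the 5 calling it.

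*Icos* was at 0.249, 0.0501 and 0.0860 CPM in naive WT, 0.623, 2.19 and 1.90 CPM in WT CAC, and 0.345, 0.151 and 0 CPM in *Cldn2*TG CAC mice. It rose 11.9-fold in WT CAC mice (log2 fold change 3.58, standard error 0.69, edgeR adjusted p = 0.0185) and was 9.14-fold lower in *Cldn2*TG CAC mice (log2 fold change -3.19, standard error 0.77, edgeR adjusted p = 0.0368), where it had 5, 3 and 0 counts. *Cd28* was at 0.199, 0.15 and 0.602 CPM in naive WT, 0.779, 1.88 and 1.02 CPM in WT CAC, and 0.207, 0.101 and 0.293 CPM in *Cldn2*TG CAC mice. WT CAC mice were above all others for both genes. *Cd28* had a log2 fold change of 1.92 in WT CAC against naive WT mice, which did not pass (standard error 0.59, edgeR adjusted p = 0.0625), and was 6.33-fold lower in *Cldn2*TG CAC than in WT CAC mice (log2 fold change -2.66, standard error 0.57, edgeR adjusted p = 0.0235).

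Between *Cldn2*TG CAC and naive WT mice the log2 fold changes of the other genes tested were 0.73 for *Cd3e* (95% interval -1.10 to 2.56), 0.57 for *Cd3d* (-0.67 to 1.80), 0.43 for *Cd3g* (-0.55 to 1.41) and 0.20 for *Cd8a* (-0.85 to 1.24), with edgeR adjusted p from 0.515 to 0.831 including *Cd4*. Without 1 mouse the estimates ran from 0.22 to 2.27 for *Cd3e*, from 0.01 to 1.25 for *Cd3d* and from 0.09 to 1.01 for *Cd3g*, each highest without naive WT mouse 3. The 95% intervals allow a change of more than 2-fold for each of them, so equality is not shown. The remaining 5 genes were removed by the filter. In the fit without a filter 0 of them were called (edgeR adjusted p from 0.306 to 0.908). Of these *Foxp3* had 4 counts in all in each group, *Ctla4* 4 counts in naive WT and 2 in *Cldn2*TG CAC mice, and *Icos* 8 in each. *Cd8b1* had 21 counts in naive WT and 30 in *Cldn2*TG CAC mice, and *Cd28* 21 and 9.

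The calls depended on which mice were included, as did those of all genes. In WT CAC against naive WT mice the number of the 10 genes called fell from 8 to 2 without naive WT mouse 1, 0 without mouse 2 and 5 without mouse 3, and to 4 and 5 without WT CAC mice 5 and 6, and it was 9 without WT CAC mouse 4. In *Cldn2*TG CAC against WT CAC mice it was 9 without WT CAC mouse 4, 5 without mouse 6, 2 without mouse 7, and 0 without mouse 5 (7 genes tested), mouse 8 or mouse 9. In the fits with 0 calls between 5 and 10 of the genes had an unadjusted p under 0.05, as did 18.8% to 24.0% of all genes in those fits. Every gene tested kept its direction in each of these 12 fits. Over all genes, the share called in WT CAC against naive WT mice was 3.96%, 0.847% and 2.55% without mice 1, 2 and 3, and 25.7%, 7.90% and 6.72% without mice 4, 5 and 6. In the other comparison it was 19.2%, 3.70% and 5.19% without mice 4, 5 and 6, and 2.92%, 0.382% and 0.685% without mice 7, 8 and 9. Among the called genes, the log2 fold changes against naive WT mice became 2.88 for *Cd3d*, 3.12 for *Cd8b1* and 3.35 for *Foxp3* without mouse 3 and 4.39 for *Icos* without mouse 1. Between the CAC groups that of *Icos* became -4.06 without mouse 7. The other called folds moved by less than 1.5 times. Of the genes not called, *Cd3e* went to 3.54 and *Cd28* to 2.78 against naive WT mice without mouse 3, and *Cd8b1* to -1.91 between the CAC groups without mouse 9.

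Per kilobase of exon, the scale on which different genes can be compared, the level of *Cd3g* was the highest of the 10 in each group. In WT CAC mice it was 4.70 ± 1.46 CPM per kb (SD, n = 3), above the 2.12 ± 0.34 CPM per kb of *Cd3d* in every mouse and without overlap. *Cd3e*, *Cd4*, *Cd8b1* and *Cd8a* followed at 1.46, 0.998, 0.911 and 0.889 CPM per kb, then *Ctla4*, *Icos*, *Foxp3* and *Cd28* at 0.639, 0.458, 0.268 and 0.201 CPM per kb. After *Cd3g*, each gene's WT CAC mice overlapped those of the next in this order. In naive WT mice *Cd28* was the seventh in order, at 0.0518 CPM per kb, with *Icos*, *Ctla4* and *Foxp3* below it at 0.0374, 0.0266 and 0.0167 CPM per kb. In WT CAC mice *Cd28* was the lowest of the 10, below *Foxp3* in each of the 3 mice. In *Cldn2*TG CAC mice *Ctla4* was last at 0.0198 CPM per kb, next to *Foxp3* at 0.0222, *Cd28* at 0.0327 and *Icos* at 0.0482 CPM per kb, all overlapping.

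**Figure D3:**
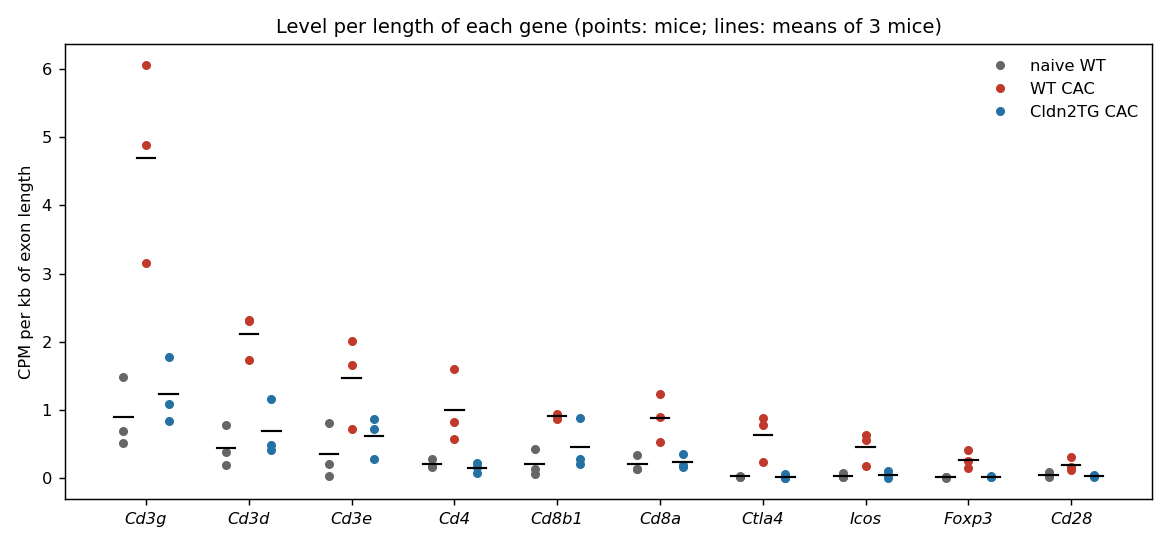
Level per length (CPM per kb of exon, y axis, linear) of the 10 genes, ordered by their mean in WT CAC mice, with a point for each mouse and a line at the mean of 3 mice. *Cd3g* leads in every group, and *Ctla4*, *Icos* and *Foxp3* lie above *Cd28* in WT CAC mice.

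Ratios of counts within a mouse, with 0.5 added to each count, need no scaling between mice. They carry the lengths of both genes, so their change between mice can be read but not their size. Across 7 ratios and 3 pairs of groups none of 21 two-sided exact permutation tests could pass after adjustment, and the smallest adjusted p was 0.63. *Ctla4* to *Cd28* was 0.333, 0.429 and 0.172 in naive WT, 0.742, 1.09 and 1.77 in WT CAC, and 0.714, 0.200 and 0.111 in *Cldn2*TG CAC mice. WT CAC mice were above both other groups (exact permutation p = 0.1 for each, adjusted p = 0.63), though the lowest WT CAC and the highest *Cldn2*TG CAC mouse were close. The difference between the CAC groups was -2.17 on the log2 scale, and -0.03 from the second lane alone, which held fewer counts than the first for mice 6, 7 and 9. *Foxp3* to the sum of the CD3 chains was 0.116, 0.0909 and 0.00565 in naive WT, 0.0888, 0.132 and 0.0984 in WT CAC, and 0.0411, 0.0337 and 0.0388 in *Cldn2*TG CAC mice. *Cldn2*TG CAC mice lay below WT CAC mice (difference -1.47 on the log2 scale, exact permutation p = 0.1, adjusted p = 0.63), on 1 or 2 *Foxp3* counts a mouse. With 2 added to each count this difference was -0.74, and from the second lane alone -0.49.

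*Cd8a* to *Cd4* was 0.677, 0.778 and 1.07 in naive WT, 0.581, 0.702 and 1.41 in WT CAC, and 0.704, 2.23 and 1.95 in *Cldn2*TG CAC mice. The highest ratios were those of *Cldn2*TG CAC mice 8 and 9, and the groups overlapped (exact permutation p = 0.2 between the CAC groups, adjusted p = 0.63). The ratios *Cd8b1* to *Cd8a*, *Foxp3* to *Cd4*, *Icos* to *Cd28* and *Ctla4* to *Foxp3* overlapped between all groups.

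Other T cell genes were taken from 9 lists of 109 genes in all. Between WT CAC and naive WT mice 76 were tested, of which 39 rose and 0 fell, against 8.04% of all genes that rose, with a median log2 fold change of 1.62. Between *Cldn2*TG CAC and WT CAC mice 68 were tested, of which 42 fell and 0 rose, against 7.35% of all genes that fell, with a median of -2.03. Of the 50 tested between *Cldn2*TG CAC and naive WT mice 1 rose and 2 fell, with a median of -0.03. The medians over all genes tested were 0.02, 0.01 and 0.00. Many of the list genes passed the filter only through their WT CAC counts, so these counts and medians describe the measurable genes alone.

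Of the 7 constant genes of the receptor chains 3 rose in WT CAC mice, all of the α and β chains, and 3 of 4 tested fell in *Cldn2*TG CAC mice. *Trac*, the constant gene of the α chain and the most counted of the list, was at 0.958 ± 0.365 CPM in naive WT, 5.09 ± 1.75 CPM in WT CAC and 1.04 ± 0.432 CPM in *Cldn2*TG CAC colon (SD, n = 3), with log2 fold changes of 2.40 in WT CAC against naive WT (standard error 0.40, edgeR adjusted p = 0.0133) and -2.30 in *Cldn2*TG CAC against WT CAC mice (standard error 0.41, edgeR adjusted p = 0.0135). *Trbc1* had the largest changes of this list, 3.19 and -2.58 on the log2 scale (edgeR adjusted p = 0.00806 and 0.0165), though it is nearly identical to *Trbc2* and the counting could split their reads. Of 15 signalling genes 11 of 12 tested rose and 9 of 12 fell. *Zap70*, the kinase recruited by the CD3 chains, went from 0.667 ± 0.227 to 6.26 ± 2.90 CPM in WT CAC mice (log2 fold change 3.21, standard error 0.44, edgeR adjusted p = 0.00821) and was at 0.587 ± 0.0340 CPM in *Cldn2*TG CAC mice (log2 fold change -3.40, standard error 0.42, edgeR adjusted p = 0.00680, SD, n = 3). *Vav1*, a signalling protein of many leukocytes and the most counted of the list, rose by 0.70 on the log2 scale in WT CAC mice (edgeR adjusted p = 0.0402), and its -0.48 in *Cldn2*TG CAC mice did not pass (edgeR adjusted p = 0.195).

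Of 10 genes for T cell surface proteins and survival 7 of 9 tested rose in WT CAC mice and 7 of 7 tested fell in *Cldn2*TG CAC mice. *Thy1*, also made by fibroblasts and neurons, was the most counted, at 6.13 ± 0.548 CPM in naive WT, 12.3 ± 1.54 CPM in WT CAC and 6.26 ± 0.264 CPM in *Cldn2*TG CAC colon (SD, n = 3), with log2 fold changes of 1.01 and -0.97 (edgeR adjusted p = 0.0158 and 0.0178). *Cd6* rose most in WT CAC mice (log2 fold change 2.82, edgeR adjusted p = 0.0157), and *Cd5*, an inhibitor of receptor signalling, fell most in *Cldn2*TG CAC mice (log2 fold change -3.35, edgeR adjusted p = 0.00955). Of 13 lineage transcription factors 4 of 11 tested rose and 5 of 10 fell. *Lef1* had the largest change in both, 4.96 and -4.10 on the log2 scale (edgeR adjusted p = 0.00776 and 0.0103), from 0.281 ± 0.113 CPM in naive WT to 8.98 ± 6.21 CPM in WT CAC and 0.534 ± 0.245 CPM in *Cldn2*TG CAC mice (SD, n = 3). LEF1 is also a Wnt effector in epithelial and tumour cells, and its WT CAC mice ran from 4.05 to 16.0 CPM. *Zbtb7b*, the factor of the CD4 lineage, was the most counted of the list, at 207 ± 9.89 CPM in naive WT, 186 ± 23.6 CPM in WT CAC and 244 ± 17.3 CPM in *Cldn2*TG CAC colon (SD, n = 3), and it was called in none of the 3 comparisons (edgeR adjusted p = 0.417, 0.108 and 0.127). *Bcl11b*, a factor of T cell commitment, was the 1 gene of the 9 T cell lists that was higher in *Cldn2*TG CAC than in naive WT mice (log2 fold change 0.58, edgeR adjusted p = 0.0436), named after its values were seen. Over all mice *Bcl11b* ran from 12.9 to 25.3 CPM and *Zbtb7b* from 161 to 262 CPM, whereas *Cd4* ran from 0.302 to 6.44 CPM. Which cells made the RNA of these 2 factors was not tested, so their values cannot be read as those of T cells.

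Of 16 genes of the regulatory T cell programme 6 of 12 tested rose in WT CAC mice and 6 of 11 fell in *Cldn2*TG CAC mice. *Tnfrsf9*, the costimulatory receptor 4-1BB, rose most in WT CAC mice, from 0.136 ± 0.130 to 2.52 ± 1.72 CPM (log2 fold change 4.13, edgeR adjusted p = 0.0245, SD, n = 3). *Il2ra*, the α chain of the interleukin-2 receptor that regulatory T cells carry, was at 0.140 ± 0.0367 CPM in naive WT, 1.90 ± 1.37 CPM in WT CAC and 0.0977 ± 0.0461 CPM in *Cldn2*TG CAC mice (SD, n = 3), and fell by 4.14 on the log2 scale between the CAC groups (edgeR adjusted p = 0.0131). *Nt5e*, the ectonucleotidase CD73, which epithelial cells also make, was the most counted, at 173 ± 40.6 CPM in naive WT mice and rose by 0.88 on the log2 scale in WT CAC mice (edgeR adjusted p = 0.0316), and its log2 fold change of -0.59 between the CAC groups did not pass (edgeR adjusted p = 0.0849). *Entpd1*, the ectonucleotidase CD39, was the 1 gene of the list called between *Cldn2*TG CAC and naive WT mice, and was lower in *Cldn2*TG CAC mice than in these (log2 fold change -1.24, edgeR adjusted p = 0.0236) and than in WT CAC mice (log2 fold change -2.10, edgeR adjusted p = 0.0110). It is named after its values were seen. *Il10*, named after its values were seen, had 0 counts in each *Cldn2*TG CAC mouse and no more than 4 in any other mouse, so no difference was detectable at this depth.

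Of 13 costimulatory and checkpoint partners 4 of 8 tested rose and 7 of 8 fell. *Icosl*, the ligand of ICOS, was the most counted and had log2 fold changes of 0.67 in WT CAC against naive WT (edgeR adjusted p = 0.0243) and -0.65 in *Cldn2*TG CAC against WT CAC mice (edgeR adjusted p = 0.0368). *Pdcd1*, the inhibitory receptor PD-1, rose most, by 2.54 on the log2 scale (edgeR adjusted p = 0.0178), and *Btla*, another inhibitory receptor, fell most (log2 fold change -2.66, edgeR adjusted p = 0.0131). Of 12 T helper cytokines only *Tnf* passed the filter and it was not called, at 2.15 ± 1.12 CPM in naive WT, 9.73 ± 7.82 CPM in WT CAC and 1.51 ± 0.558 CPM in *Cldn2*TG CAC colon (SD, n = 3, edgeR adjusted p = 0.0977 and 0.0695). Of 12 homing receptors 3 of 10 tested rose and 4 of 9 fell. *Ccr7*, which guides cells into lymphoid tissue, rose most (log2 fold change 2.56, edgeR adjusted p = 0.0282) in WT CAC mice and was lower in *Cldn2*TG CAC than in WT CAC mice (log2 fold change -2.59, edgeR adjusted p = 0.00879). *S1pr1*, by which lymphocytes leave lymphoid tissue and which endothelium makes too, was the most counted, and it was lower in *Cldn2*TG CAC mice than in both WT CAC (log2 fold change -1.80, edgeR adjusted p = 0.0136) and naive WT mice (log2 fold change -1.38, edgeR adjusted p = 0.0126). Of 11 cytotoxic genes 1 of 6 tested rose in WT CAC mice, *Gzma* (log2 fold change 3.56, edgeR adjusted p = 0.0478), and 1 of 6 fell in *Cldn2*TG CAC mice, *Gzmb* (log2 fold change -2.93, edgeR adjusted p = 0.0357), and *Ccl5*, the most counted, was called in neither (edgeR adjusted p = 0.116 and 0.104).

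**Figure D4:**
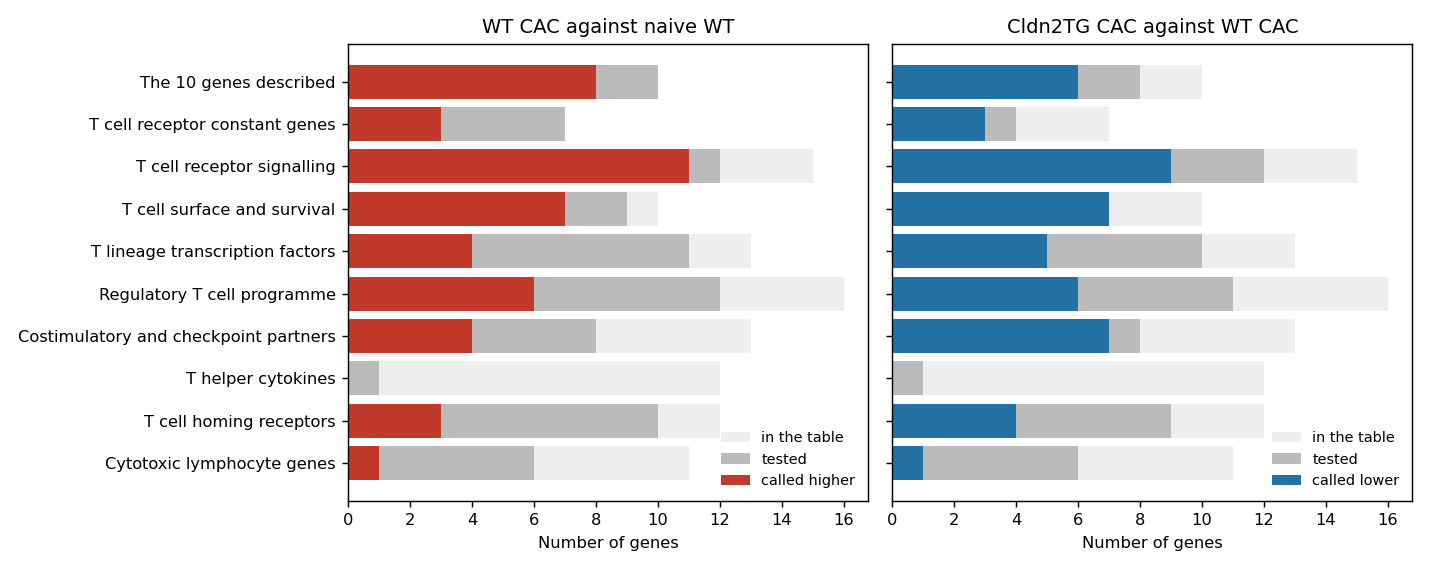
Number of genes (x axis) in the table, tested and called in each T cell gene list (y axis) in WT CAC against naive WT mice (left, called higher in red) and in *Cldn2*TG CAC against WT CAC mice (right, called lower in blue). Signalling genes hold the most calls, 11 and 9, and the cytokines none.

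Markers of some other immune cells were called in the same comparisons, in which 8.04% of all genes rose in WT CAC and 7.35% fell in *Cldn2*TG CAC mice. Of 6 pan-leukocyte markers 5 rose in WT CAC mice and 5 fell in *Cldn2*TG CAC mice, and they summed to 21.2 to 59.5 CPM in naive WT, 128 to 156 CPM in WT CAC and 22.5 to 38.2 CPM in *Cldn2*TG CAC mice. Of 9 macrophage markers 7 rose and 7 fell, with sums of 165 to 200, 223 to 474 and 109 to 157 CPM. A large part of these sums was *Cd14*, at 89.5 to 112, 74.6 to 144 and 69.4 to 79.3 CPM, which was called in neither comparison (edgeR adjusted p = 0.554 and 0.117). Of 5 plasma cell markers 2 of 4 tested rose and 3 of 4 fell, with sums of 308 to 347, 432 to 764 and 279 to 362 CPM. In naive WT and *Cldn2*TG CAC mice the plasma cell sums were mostly *Sdc1*, also an epithelial gene, which was not called (edgeR adjusted p = 0.512 and 0.737). In WT CAC mice 5 and 6 the larger part was *Jchain*, which joins secreted antibodies, at 426 and 393 CPM against 320 and 358 CPM of *Sdc1*. By group *Jchain* was at 55.4, 337 and 51.5 CPM on average (log2 fold changes 2.61 and -2.72, edgeR adjusted p = 0.0163 and 0.0412). Of 7 dendritic cell markers 2 of 3 tested rose and 1 of 2 fell, with sums of 2.85 to 5.72, 7.84 to 18.8 and 2.05 to 4.21 CPM. B cell markers had 0 of 8 called in WT CAC against naive WT mice by edgeR and 1 of 8 in *Cldn2*TG CAC against WT CAC mice, with sums of 4.31 to 36.9, 29.9 to 60.8 and 3.22 to 22.6 CPM. Their part in the values of the T cell genes was not tested. Each of these lists had at least 1 count in some mouse of each group for every marker in it.

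Of 6 neutrophil markers 4 of 4 tested rose and 2 of 3 fell, though their sums, 136 to 207, 307 to 375 and 303 to 348 CPM, were mostly *Ly6g*, which did not fall in *Cldn2*TG CAC mice (edgeR adjusted p = 0.902). *S100a9* had log2 fold changes of 5.92 and -6.26 (edgeR adjusted p = 0.0342 and 0.0386), with WT CAC mice from 0.779 to 21.9 CPM. *Retnlg* was at 0 in naive WT mice. NK cell markers were at or below 0.877 CPM in sum in each mouse, with *Klra8* at 0 in all, and 0 of 4 passed the filter. Of 5 lymphoid tissue stroma markers 0 of 2 tested rose by edgeR and 1 of 2 fell, with sums of 2.70 to 9.40, 9.47 to 13.0 and 2.27 to 5.13 CPM with *Ccl21a* at 0 in all mice and *Ccl19* in naive WT mice. Of 10 colon epithelium markers 0 were called by edgeR between the CAC groups and 0 in WT CAC against naive WT mice, with sums of 18371 to 20960, 17182 to 22986 and 18928 to 24802 CPM. Smooth muscle had 0 of 6 called in either comparison, with sums of 1948 to 3965, 1027 to 2940 and 931 to 1441 CPM, and fibroblasts 0 of 5 and 1 of 5 called lower, with sums of 151 to 214, 229 to 607 and 118 to 151 CPM. Between *Cldn2*TG CAC and naive WT mice, where 0 of the 10 T cell genes were called, the smooth muscle genes *Myh11* and *Acta2*, the fibroblast gene *Col1a2* and the macrophage gene *Cd14* were lower and the epithelial gene *Krt8* and *Ly6g* were higher in *Cldn2*TG CAC mice. No other marker was called by edgeR. The part of these differences in the T cell values was not tested. Nor was it tested which cells made the *Cd14* and *Ly6g* RNA. The neutrophil markers *S100a8* and *S100a9* were at no more than 0.301 CPM in any naive WT or *Cldn2*TG CAC mouse.

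**Figure D5:**
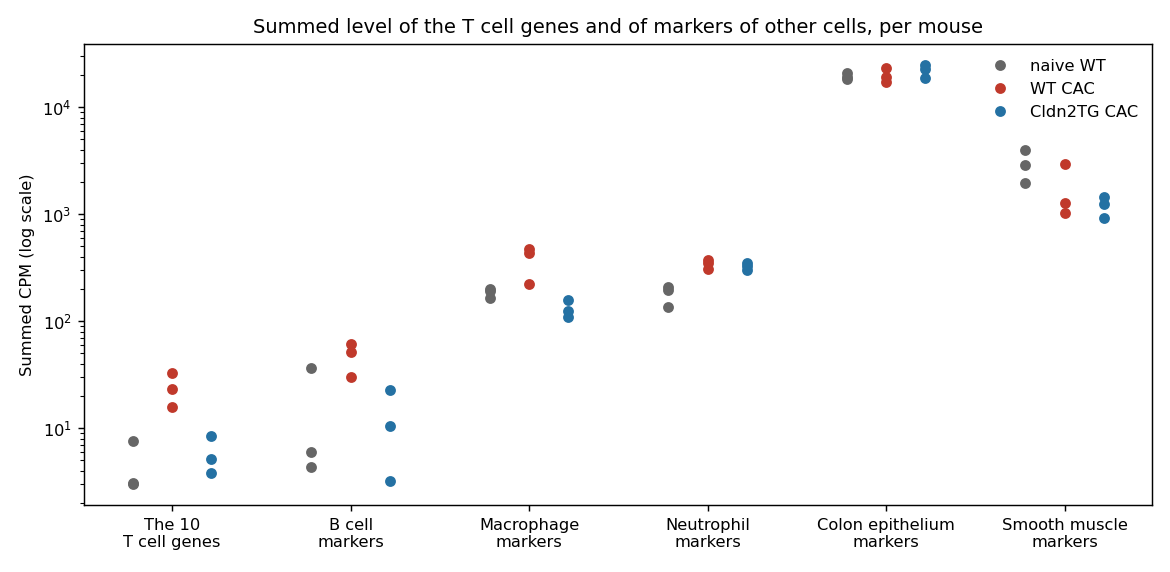
Summed TMM-normalized CPM (y axis, log scale) of the 10 T cell genes and of marker lists of other cells (x axis), with a point for each of 9 mice. The T cell genes of WT CAC mice (15.9 to 32.5 CPM) lie above both other groups (2.98 to 8.42 CPM), the B cell markers of naive WT mouse 1 lie among those of WT CAC mice, and the epithelium markers of the 3 groups overlap.

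Outside the 10 genes, the 5 genes whose pattern over the 9 mice was most like the mean of the CD3 chains, among 13910 genes with a mean of at least 1 CPM, were *H2-D1*, *Ceacam12*, *1700020L24Rik*, *Gmppb* and *Lgals9*, with Pearson's r from 0.955 to 0.964. These are descriptions over 9 mice that share the difference between groups. *H2-D1*, a class I molecule made by nearly all cells, ran from 889 to 1143 CPM in naive WT, 1286 to 1786 CPM in WT CAC and 1005 to 1296 CPM in *Cldn2*TG CAC mice. Among the other 7 genes r with the CD3 chains was 0.98 for *Cd8a*, 0.93 for *Cd8b1*, 0.91 for *Cd28*, 0.87 for *Ctla4*, 0.86 for *Foxp3*, 0.83 for *Cd4* and 0.79 for *Icos*.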

How the data were processed

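RNA-Seq of whole colon gave 18 columns, 2 lanes for each of 9 libraries, and all were used. The authors extracted total RNA, sequenced it on a NovaSeq6000 and counted reads per gene with featureCounts of Subread. Their methods name TopHat2 as the aligner and the submitters' processing notes name HISAT2 and GRCm38, and versions, annotation and strand setting were not given in the sources used here. The deposited values are whole-number counts without normalization. Groups came from the genotype and treatment labels. No source says that mice of a group came from separate litters, and p-values measure the spread between these mice.

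Lanes differed in composition by little more than counting noise (chi-square per degree of freedom 0.995 to 1.06, whereas mice of 1 group gave 16.8 to 66.3) and were added up. The second lane held 28.4%, 38.6% and 32.4% of the counts of mice 6, 7 and 9, and 50.2% to 50.3% of those of the other mice. Symbols came from GENCODE M21 by gene identifier (47310 of 47729). Each pair of groups was fitted on its 6 mice with edgeR 4.0.16 in R 4.3.3 (TMM, filterByExpr with a minimum count of 10 and total of 15, robust quasi-likelihood, two-sided), and p-values were adjusted over all genes tested. The standard error is the log2 fold change divided by the root of the F statistic, and the 95% interval uses the fit's degrees of freedom. CPM use TMM factors over all 9 mice. The exact permutation test compared means of log2(CPM + 0.5), and its smallest p is 0.1. Pooled ratios of counts are per effective library total, with exact binomial (Clopper-Pearson) 95% intervals. DESeq2 1.42.0, other scalings and filters, single lanes and leaving out each mouse were alternatives, and leaving out mice in the permutation differences was added after the data were seen. Python 3.11.15, pandas 2.3.3 and scipy 1.17.1 made the tables.

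The 10 genes and the 9 T cell and 11 marker lists were chosen with earlier results of these data known. Named are the 10 genes, of each T cell list the most counted gene and the called gene that rose most in WT CAC colon or fell most between the CAC groups, the 5 genes most like the CD3 chains, *Cldn2* and *Xist*. The result of 1 gene that this rule names is not reported here. Promoter windows were found for 6 of the 10 genes in the RefSeq table and searched, and those of the CD3 genes and *Foxp3* are shown. *Ly6g* and other single markers are named to show what a sum consists of.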

Additional observations from a re-analysis of the deposited data

How the results depend on the processing

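With all 6 mice, the number of the 10 genes called in WT CAC against naive WT mice was 8 or more under DESeq2, 3 other scalings, no filter, a fit of all 9 mice, an unadjusted threshold and a log2 fold change of at least 1. It was 3 of 3 tested with a filter of at least 10 counts in every mouse, and 5 of 6 and 3 of 5 tested from the first and second lane alone, so most of the drop is from fewer genes tested. In *Cldn2*TG CAC against WT CAC mice the number was 6 to 8 under the same alternatives, 1 of 1 tested with the filter, and 3 of 6 and 2 of 5 tested from single lanes. From single lanes the log2 fold change of *Cd8b1* against naive WT mice reached 2.85 and that of *Cd4* between the CAC groups -3.34. Over all genes the share called in the first of these comparisons was 15%, with 20.9% by DESeq2, 20.2% in the fit of all 9 mice, 9.40% without a filter and 32.6% unadjusted, and in the second 9.54%, with 13.9%, 13.6%, 6.53% and 23.5%. Leaving out 1 mouse gave 0 to 9 in each of these comparisons. In *Cldn2*TG CAC against naive WT mice it was 0 under every alternative run, with 0 to 1 at an unadjusted p under 0.05 without 1 mouse. Only the log2 fold change of *Cd8a* in that comparison changed sign, from 0.20 to -0.18 without mouse 9 and to -0.02 without mouse 1 or 2, the range without 1 mouse being -0.18 to 0.80, and it was called in none. Library size in place of TMM moved the median of all genes in that comparison to -0.11, and the shares of all genes called higher and lower from 3.92% and 6.07% to 1.84% and 8.73%. The methods describe littermate controls for the *Cldn2*-modified mice, but the labels give no litter, so no paired analysis was possible.

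Depth limits *Foxp3*, *Ctla4* and *Icos* most, since outside WT CAC mice they had 0 to 5 counts a mouse. Their differences on the log2(CPM + 0.5) scale depend on the pseudocount, with *Ctla4* in *Cldn2*TG CAC against WT CAC mice at -1.78, -3.40 with 0.1 and -0.74 with 2, and *Foxp3* at -1.36, -2.56 and -0.54. Of 210 alternative values of the ratios 16 moved by more than the spread between mice. Of 270 alternative values of the differences in mean log2, 31 did.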

Other observations

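Within each group the mouse with the highest sum of the 10 T cell genes was not the mouse with the highest sum of the B cell markers. This was noticed after the values were seen and was not tested, and each group holds 3 mice. In WT CAC mice 4, 5 and 6 the 10 T cell genes summed to 15.9, 32.5 and 23.3 CPM and the 8 B cell markers to 60.8, 29.9 and 51.6 CPM, an opposite order. In *Cldn2*TG CAC mice 7, 8 and 9 the sums were 5.18, 3.82 and 8.42 CPM for the T cell genes and 10.6, 22.6 and 3.22 CPM for the B cell markers, again an opposite order. In naive WT mice 1, 2 and 3 they were 2.98, 3.05 and 7.61 CPM and 36.9, 4.31 and 6.06 CPM, and mouse 1, the mouse with *Xist*, led the B cell markers. The same naive mouse had the most *Cxcl13*, a chemokine of B cell follicles, at 7.36 CPM against 1.15 and 1.72 CPM in mice 2 and 3. Some other T cell lists did not follow this: the receptor signalling genes of *Cldn2*TG CAC mice were highest in mouse 8 (30.1 CPM, against 26.2 and 29.6 CPM in mice 7 and 9), and the homing receptors of naive WT mice in mouse 1 (16.4 CPM, against 7.61 and 9.85 CPM in mice 2 and 3), the mice that led the B cell markers.

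The members of the T cell set also had a shared order among mice. In naive WT mice 8 of the 10 genes were highest in mouse 3, in WT CAC mice 9 of 10 were highest in mouse 5 and 8 lowest in mouse 4, and in *Cldn2*TG CAC mice 7 of 10 were highest in mouse 9. *Ctla4* and *Icos* did not follow this in *Cldn2*TG CAC mice, where both were highest in mouse 7 and at 0 counts in mouse 9. *Cd4* was likewise highest in mouse 7. In WT CAC mice *Cd8b1* was the exception, with its highest value in mouse 4, so the ratio of *Cd8b1* to *Cd8a* was 0.733 in that mouse and 0.304 and 0.402 in mice 5 and 6.

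Of the cytokine genes, *Il17a*, the cytokine of type 17 helper T cells, had 0, 9 and 10 counts in WT CAC mice 4, 5 and 6, 0 counts in each naive WT mouse and 0, 1 and 0 counts in *Cldn2*TG CAC mice. It did not pass the filter and is named after its values were seen.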
